A study of Mus musculus with 24 samples.

Results

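Blood-brain barrier endothelial genes were examined in the medial prefrontal cortex (mPFC) as 10 genes chosen by symbol: *Cldn5*, *Ocln*, *Tjp1*, *Pecam1*, *Cdh5*, *Flt1*, *Slc2a1*, *Slco1c1*, *Mfsd2a* and *Abcb1a*. All 10 were found among the 15456 genes of the normalized count table, and all 10 passed the filter on low values. RNA from the mPFC of 24 male BALB/C mice at postnatal week 11 was sequenced after poly(A) selection, with 6 mice per group and 1 library per mouse. Mice of the control group carried the label of no treatment and received PBS according to the methods. The duloxetine group received the antidepressant duloxetine, an inhibitor of serotonin and noradrenalin uptake, by daily i.p. injection at 10 mg/kg. The *R. flavefaciens* group received live *Ruminococcus flavefaciens*, an anaerobic bacterium of the gut, by gavage, and the fourth group, named both, received the bacterium and duloxetine together. Treatment lasted at least 21 days before testing, the labels name no genetic change, and tissue was taken with a punch from a brain slice, so each library mixes neurons, glia and vessels. Mice are named by their group and label number, such as mouse 9.3, and the labels name no batch.

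The blood-brain barrier is formed by the endothelial cells of brain capillaries, which seal the gaps between them with tight junctions, take up little by vesicles, and carry nutrients and pump out drugs through dedicated transporters. Pericytes, the basement membrane and the endfeet of astrocytes wrap these vessels and help to keep the barrier closed. Claudin 5, occludin and ZO-1 belong to the tight junction, VE-cadherin and PECAM-1 hold endothelial cells together, and GLUT1, MFSD2A, OATP1C1 and P-glycoprotein are carriers of the barrier.

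The number of reads recovered from the normalized counts was between 12811413 and 15607343 per mouse. Its median was 13591497 in control, 14536037 with duloxetine, 13943370 with *R. flavefaciens* and 14621656 with both. Libraries were deeper than in control with duloxetine (two-sided exact permutation test, *p* = 0.00433) and with both (exact permutation test, *p* = 0.00433), and no difference was detected with *R. flavefaciens* (exact permutation test, *p* = 0.738). The counts are divided by 1 size factor per mouse, and the part of depth in the results was not tested. The 10 genes had between 76 and 1969 reads in a library. Counting error alone gave a coefficient of variation between 2.48% and 2.60% for *Tjp1* and between 8.90% and 9.94% for *Ocln*, the genes with the highest and the lowest mean count.

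Detection could not test the label of endothelium, since only 69 normalized counts were without a read, against 370875 with reads. *Cldn5*, *Pecam1* and *Cdh5*, which are members themselves, were detected in all 24 mice. Per kb of the longest transcript, their median normalized count was 411 for *Cldn5*, 79.8 for *Pecam1* and 51.9 for *Cdh5*, against 227 for *Aqp4*, the water channel of astrocytes, 154 for *Cx3cr1*, a receptor of microglia, and 8249 for *Slc17a7*, the vesicular glutamate transporter of cortical neurons. *Plvap*, a gene of leaky vessels that lack a barrier, was also present, with a median of 94.5 per kb. In such bulk tissue, fewer endothelial cells and less RNA per cell cannot be told apart.

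Levels of the 10 genes can be compared only per length. Over 24 mice the normalized count per kb of the longest transcript was 422 ± 56.3 (SD) for *Slc2a1* and 422 ± 83.2 for *Cldn5*, which could not be ordered. Then came *Slco1c1* with 252 ± 21.9, *Tjp1* with 221 ± 17.4 and *Flt1* with 198 ± 26.3 per kb, and *Mfsd2a* with 155 ± 24.3, where the ranges of mean ± SD of neighbours in this order overlapped. *Abcb1a* had 87.9 ± 11.9 and *Pecam1* 80.8 ± 14.6 per kb, and this pair also overlapped. *Cdh5* with 52.6 ± 7.23 and *Ocln* with 26.9 ± 4.86 per kb were the lowest. With the length of all exons in place of the longest transcript, *Cldn5* came before *Slc2a1*, *Tjp1* before *Slco1c1*, *Mfsd2a* before *Flt1* and *Cdh5* before *Pecam1*, so that this part of the order depends on which transcripts are expressed.

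Promoter sequences from RefSeq (GRCm38.p6, the 250 bases before the start) were matched for 8 of the 10 genes, in 9 promoters. *Pecam1* and *Cdh5* are named only. The windows of *Slco1c1*, *Mfsd2a*, *Flt1* and *Cldn5* are shown, since *Slco1c1* and *Mfsd2a* varied together most closely, *Flt1* and *Slco1c1* were among the genes with the smallest *p*-values in the comparisons with control, and *Cldn5* varied most for its level. Both strands were searched for exact letters only, so other forms of the same sites are not marked. AGGAAG is a form of the site bound by ETS factors of endothelium. CTTTGA is a core bound by TCF/LEF factors of the Wnt pathway, and ACGTG is a form of the core of the hypoxia response element. Capitals mark a match on either strand, and positions count back from the start to the leftmost base of the match. They lie at chr6:141524104-141524353 on the plus strand (*Slco1c1*), chr4:122961189-122961438 on the minus strand (*Mfsd2a*), chr5:147726012-147726261 on the minus strand (*Flt1*) and chr16:18776597-18776846 on the plus strand (*Cldn5*).
Slco1c1: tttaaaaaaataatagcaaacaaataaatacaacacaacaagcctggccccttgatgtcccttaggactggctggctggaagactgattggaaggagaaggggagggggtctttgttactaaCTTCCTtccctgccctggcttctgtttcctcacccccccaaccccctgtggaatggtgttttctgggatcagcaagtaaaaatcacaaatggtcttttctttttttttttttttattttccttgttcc
Mfsd2a: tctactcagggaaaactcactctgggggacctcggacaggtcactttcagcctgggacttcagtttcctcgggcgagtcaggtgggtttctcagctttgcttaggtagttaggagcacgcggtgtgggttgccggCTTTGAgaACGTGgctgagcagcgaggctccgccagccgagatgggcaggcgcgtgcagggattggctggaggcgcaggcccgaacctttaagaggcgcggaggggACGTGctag
Flt1: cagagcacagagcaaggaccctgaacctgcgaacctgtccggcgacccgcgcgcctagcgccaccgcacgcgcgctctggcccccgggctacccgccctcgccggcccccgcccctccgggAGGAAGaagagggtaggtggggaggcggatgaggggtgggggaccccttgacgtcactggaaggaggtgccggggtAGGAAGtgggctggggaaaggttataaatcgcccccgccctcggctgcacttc
Cldn5: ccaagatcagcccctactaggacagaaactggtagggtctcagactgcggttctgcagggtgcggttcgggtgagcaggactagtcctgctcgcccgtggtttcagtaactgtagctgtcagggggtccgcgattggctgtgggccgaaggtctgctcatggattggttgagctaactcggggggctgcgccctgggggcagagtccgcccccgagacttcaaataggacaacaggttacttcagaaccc

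AGGAAG was found in *Flt1* at -129 and -53, in *Slco1c1* at -128 and in *Abcb1a*, that is, in 3 of 8 genes. Of 32851 mouse promoters of the same length, 29.5% hold it. CTTTGA was found in *Mfsd2a* at -115 and in *Abcb1a*, and 13.8% of all promoters hold it. ACGTG was found in *Mfsd2a* at -107 and -9 and in *Slc2a1*, and 16.6% of all promoters hold it. No window of *Cldn5*, *Ocln* or *Tjp1* held any of these letters. The start used by RefSeq lies upstream of the start of the gene in the count table for *Abcb1a*, and far inside that gene for *Tjp1*. These matches describe the sequence only.

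To see whether treatment with duloxetine, with *R. flavefaciens* or with both altered the barrier genes, the groups were compared in 1 limma fit of log2(normalized count + 1) with all 14974 genes that had a mean of at least 10, and fold changes below are on that scale. None of the 10 genes passed an adjusted *p* of 0.05 in limma in any comparison. With duloxetine against control 0 of 10 genes passed and the background over all genes was also 0%. With *R. flavefaciens* against control 0 of 10 passed against 0.0267% of all genes, and with both against control 0 of 10 against 0.1%. With both against duloxetine 0 of 10 passed against 0%, and with both against *R. flavefaciens* 0 of 10 against 2.23%. The 3 comparisons with control share the control mice, and the comparisons between treatments share treated mice. On the recovered reads, edgeR also called 0 of 10 in each of these 5 comparisons, against 0%, 0.0267%, 0.114%, 0% and 2.18% of all genes in the same order. DESeq2 called 0 of 10 in each, against 0.00668%, 3.26%, 1.45%, 0.00668% and 4.17%, and gave no adjusted *p* for *Ocln* in the comparison of *R. flavefaciens* with control. At an unadjusted *p* of 0.05, limma gave 0 genes with duloxetine (3.83% of all genes), 1 with *R. flavefaciens* (19.6%), 3 with both (16.8%), 1 with both against duloxetine (5.9%) and 1 with both against *R. flavefaciens* (19.7%). The groups of 6 mice overlapped for every member in all 5 comparisons, where 0.334%, 1.62%, 2.04%, 0.254% and 1.44% of all genes did not overlap.

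For each gene taken alone, the 95% interval gives the range of change that these data allow. Each gene has 1 spread pooled over the 4 groups, although spreads differed between groups. The coefficient of variation of *Tjp1*, for example, was 2.45% in control and 14.9% with *R. flavefaciens*. The 95% intervals of the 10 genes reached from 0.764-fold (*Cldn5*) to 1.38-fold (*Pecam1*) with duloxetine, from 0.831-fold (*Tjp1*) to 1.36-fold (*Cldn5*) with *R. flavefaciens*, and from 0.751-fold (*Cldn5*) to 1.35-fold (*Ocln*) with both. The median log2 fold change of the 10 genes against control was 0.0047 with duloxetine, 0.11 with *R. flavefaciens* and 0.16 with both, and the median over all genes was -0.0018, 0.0031 and 0.00072. Estimates above 0 were found for 5 of 10 genes with duloxetine, 9 of 10 with *R. flavefaciens* and 7 of 10 with both, against 49%, 50.8% and 50.2% of all genes. The members vary together from mouse to mouse, so these counts are not 10 independent observations. Of the 30 estimates against control, 21 moved by over 1.5 times when some 1 mouse was left out, and 4 of these changed sign.

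**Figure D1:**
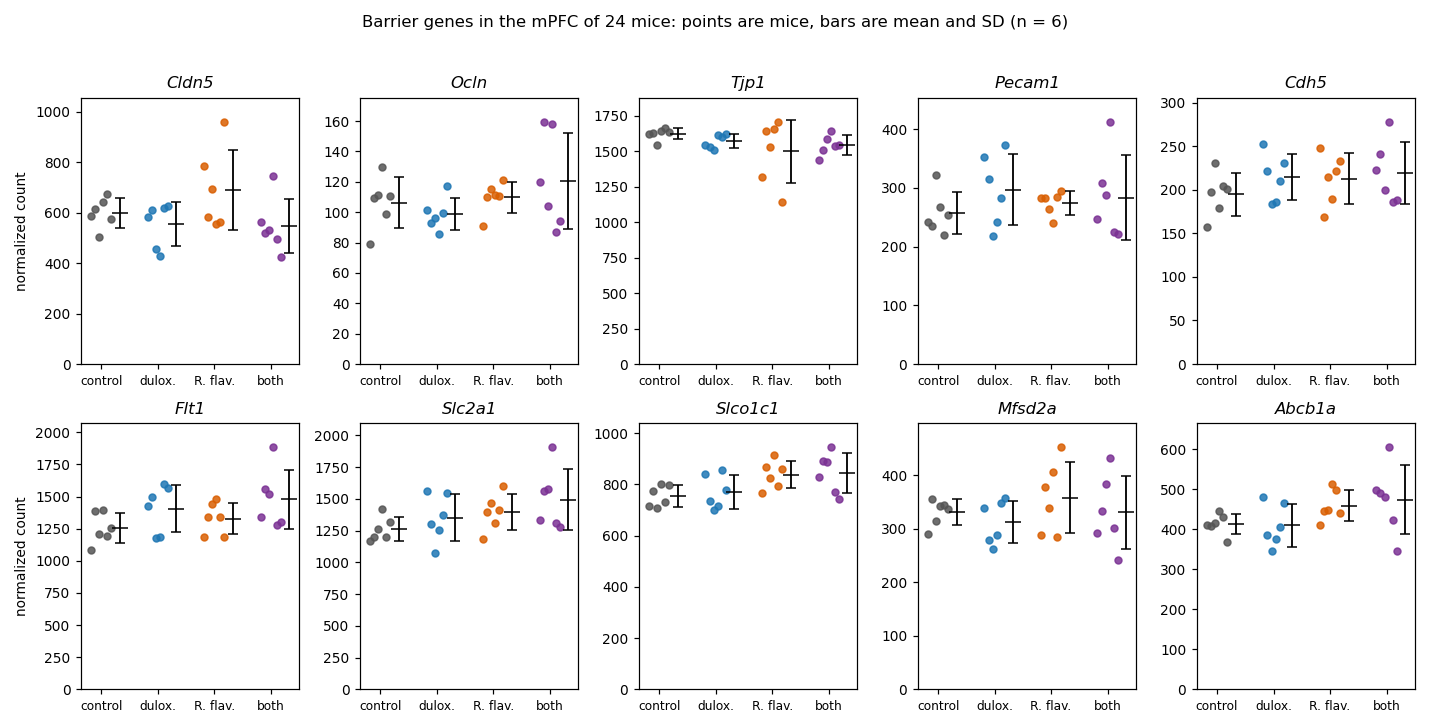
Normalized counts (vertical axis, starting at 0) of the 10 barrier genes in each mouse, by group on the horizontal axis, with points for mice (their sideways offset has no meaning) and bars for the mean and SD of 6 mice. The 4 groups overlap in every panel, and single mice stand out, such as mouse 9.3 at 959.6 for *Cldn5* and at 1139.7 for *Tjp1*, and mouse 12.2 with the highest value of the both group for 9 of 10 genes.

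Among the tight junction genes, *Cldn5* (ENSMUSG00000041378.1, chr16:18776847-18778260) encodes claudin 5, the strand protein that closes the barrier to small molecules. Its lowest, median and highest normalized counts were 504, 599.8 and 674 in control, 429, 597 and 626 with duloxetine, 556, 638 and 959.6 with *R. flavefaciens*, and 423, 527 and 745 with both. All 4 groups overlapped, and the highest mice of the *R. flavefaciens* group, 9.3 and 7.2, lay above all other mice. The limma log2 fold change against control was -0.12 (SE 0.13) with duloxetine, 0.18 (SE 0.13) with *R. flavefaciens* (adjusted *p* = 0.461), which were -0.053 without mouse 6.1 and 0.079 without mouse 9.3, and -0.15 (SE 0.13) with both (adjusted *p* = 0.571), which was -0.24 without mouse 12.2 and -0.079 without mouse 12.4. The difference between both and *R. flavefaciens* was -0.33 (SE 0.13, 95% interval -0.59 to -0.06, limma adjusted *p* = 0.16), with an unadjusted *p* of 0.0169. Without mouse 9.3 it was -0.23 (limma adjusted *p* = 0.354), and without mouse 12.2 it was -0.42 (limma adjusted *p* = 0.0778).

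*Tjp1* (ENSMUSG00000030516.14, chr7:65296165-65527781) encodes ZO-1, the scaffold that ties claudins to actin and is also made by cells other than endothelium. In control, *Tjp1* had lowest, median and highest normalized counts of 1545.5, 1632 and 1660.1, against 1506, 1571 and 1624 with duloxetine, 1139.7, 1583 and 1706 with *R. flavefaciens*, and 1434, 1539.9 and 1643 with both. Control mice lay close together, with a coefficient of variation of 2.45% that does not exceed counting error, whereas it was 14.9% with *R. flavefaciens*. The log2 fold change against control was -0.13 (SE 0.067, limma adjusted *p* = 0.291) with *R. flavefaciens*, -0.05 with duloxetine and -0.07 with both. Without mouse 9.3 the first value was -0.05 (limma adjusted *p* = 0.723).

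*Ocln* (ENSMUSG00000021638.12, chr13:100496507-100552718) encodes occludin, a further strand protein of the junction. The lowest, median and highest of 6 mice were 78.9, 109.8 and 129 in control, 85.6, 97.8 and 118 with duloxetine, 90.9, 110.9 and 121 with *R. flavefaciens*, and 87.1, 112 and 159 normalized counts with both. Mice 11.3 and 12.2 of the both group were higher than all others, and the rest of that group lay within the range of control. Its log2 fold change with both was 0.15 (SE 0.13) against control and 0.25 (SE 0.13) against duloxetine, with limma adjusted *p* = 0.567 and 0.818. Without mouse 11.3 they were 0.066 and 0.16.

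*Cldn5* and *Tjp1* lay furthest apart in mice 9.3 and 7.2 of the *R. flavefaciens* group. Relative to each gene's mean over 24 mice, the log2 value of *Cldn5* lay above that of *Tjp1* by 1.15 in mouse 9.3 and by 0.65 in mouse 7.2, whereas in the 6 control mice the gap was between -0.21 and 0.10. In the other direction it was -0.51 in mouse 6.1 and -0.32 in mouse 5.4 of the duloxetine group and -0.46 in mouse 12.4 of the both group. Mice also differed by transcript length across the whole table. The slope of a mouse's log2 deviations over all genes on log2 transcript length was -0.178 in mouse 9.3 and -0.0664 in mouse 7.2, so that long transcripts were read lower in them, and it was between 0.0197 and 0.0456 in control. Mice 6.1, 5.4 and 12.4 had slopes of 0.0401, 0.0421 and 0.0219, within the control range. Whole groups were shifted as well, since all 6 mice of the *R. flavefaciens* group, 5 of 6 of the both group and 4 of 6 of the duloxetine group lay below the lowest control. Mean slopes were 0.0353 in control, 0.0133 with duloxetine, -0.0418 with *R. flavefaciens* and -0.00685 with both, and mouse 8.4 of the *R. flavefaciens* group had a slope of -0.0492 and a gap of 0.27. Median slopes, on which mouse 9.3 weighs less, were 0.0415, 0.0101, -0.0197 and -0.0041 in the same order of groups. With this trend removed, the median log2 fold change of the 10 members was 0.012 with duloxetine, 0.12 with *R. flavefaciens* and 0.16 with both against control. *Cldn5* has a longest transcript of 1416 bases and *Tjp1* of 7049 bases. With the trend on transcript length removed, the log2 fold change with *R. flavefaciens* was 0.08 for *Cldn5* (limma adjusted *p* = 0.825) and -0.03 for *Tjp1* (limma adjusted *p* = 0.852). The difference of *Cldn5* between both and *R. flavefaciens* was then -0.27 (limma adjusted *p* = 0.173).

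**Figure D2:**
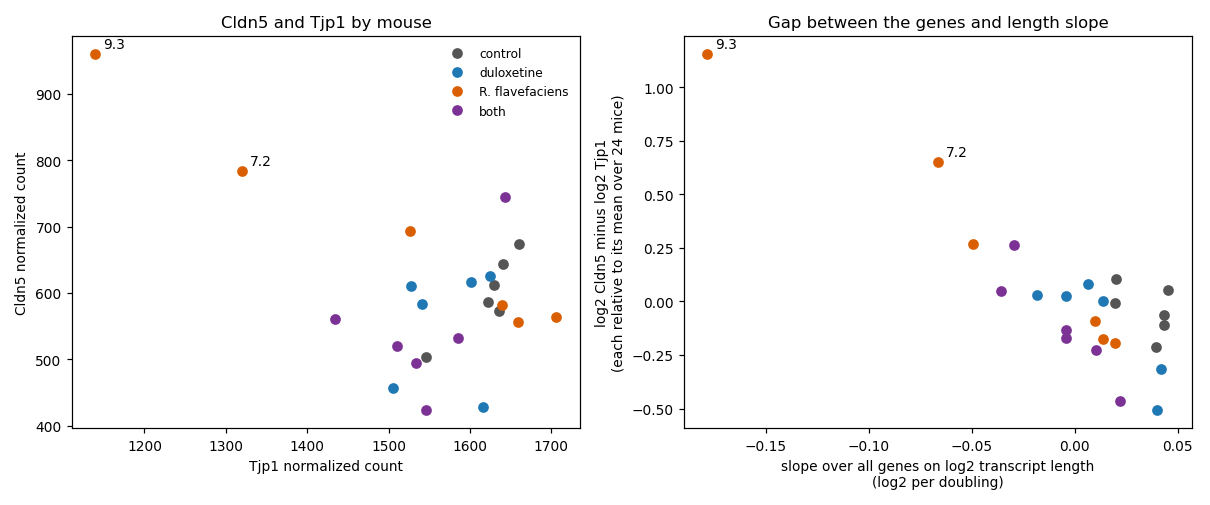
Left, normalized counts of *Cldn5* (vertical axis) and *Tjp1* (horizontal axis) in each of 24 mice, and right, the log2 gap between the genes (vertical axis) against the slope over all genes on log2 transcript length (horizontal axis), with 1 point per mouse coloured by group and axes that do not start at 0. Mice 9.3 and 7.2 of the *R. flavefaciens* group have the widest gaps, 1.15 and 0.65, and the lowest slopes, -0.178 and -0.0664.

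Neither adhesion gene of endothelium passed in any comparison between groups. *Pecam1* (ENSMUSG00000020717.19, chr11:106654217-106750628), which encodes PECAM-1 or CD31, had lowest, median and highest normalized counts of 220.4, 248 and 322 in control, 218, 299 and 373 with duloxetine, 239.6, 282 and 295 with *R. flavefaciens*, and 221, 267 and 412 with both. Its log2 fold change against control was 0.20 (SE 0.13) with duloxetine, 0.10 with *R. flavefaciens* and 0.12 with both, with limma adjusted *p* = 0.9996, 0.71 and 0.671. Without mouse 12.2 the value with both was 0.0042, and without control mouse 2.2 it was 0.19. That with duloxetine was 0.125 without mouse 6.3 and 0.28 without mouse 5.4. That with *R. flavefaciens* was 0.063 without control mouse 3.1 and 0.17 without control mouse 2.2. *Cdh5* (ENSMUSG00000031871.9, chr8:104101625-104144511) encodes VE-cadherin, the adherens junction protein of endothelium. For *Cdh5*, normalized counts had a lowest, median and highest value of 157, 199 and 230.3 in control, 184, 216 and 252 with duloxetine, 169, 218 and 248 with *R. flavefaciens*, and 186, 211 and 278 with both. Medians in the treated groups were higher than in control, but the ranges overlapped, and the highest mouse of each treated group lay above all controls. Its log2 fold changes were 0.14, 0.12 and 0.16 (SE 0.11 each), and limma adjusted *p* was 0.9996, 0.564 and 0.446, with 0.093 in place of 0.16 for both without mouse 12.2. Without control mouse 1.1 the other two were 0.075 with duloxetine and 0.062 with *R. flavefaciens*, and without mouse 8.3 the last was 0.19.

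*Flt1* (ENSMUSG00000029648.13, chr5:147561604-147726011) encodes VEGF receptor 1, which binds VEGF and holds it from its main receptor. Its lowest, median and highest normalized counts were 1088, 1231 and 1392 in control, 1176, 1460.0 and 1595 with duloxetine, 1183, 1343 and 1477 with *R. flavefaciens*, and 1277, 1430.1 and 1883 with both. All 6 mice given both treatments lay above the median of control, yet the lowest of them were within its range. The log2 fold change against control was 0.23 with both (SE 0.091, 95% interval 0.04 to 0.42, limma adjusted *p* = 0.217), 0.16 with duloxetine (SE 0.091) and 0.08 with *R. flavefaciens* (SE 0.091). Without mouse 12.2 the limma adjusted *p* of the first was 0.454. The value with *R. flavefaciens* ran from 0.081 to 0.18 over the processing alternatives, and was 0.044 without control mouse 1.1.

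Among the transporters, estimates against control were above 0 in both groups given the bacterium, except for *Mfsd2a* with both. *Slc2a1* (ENSMUSG00000028645.11, chr4:119108711-119137983) encodes GLUT1, the carrier that brings glucose into the brain. Normalized counts of *Slc2a1* had a lowest, median and highest value of 1167, 1233 and 1419.6 in control, 1073, 1338 and 1565 with duloxetine, 1182, 1403 and 1601 with *R. flavefaciens*, and 1279, 1449 and 1906 with both. The medians of the 3 treated groups were above that of control, but the lowest treated mice lay within the control range or below it. The log2 fold change against control was 0.23 (SE 0.092, 95% interval 0.04 to 0.42, limma adjusted *p* = 0.219) with both, 0.14 with *R. flavefaciens* (limma adjusted *p* = 0.412) and 0.09 with duloxetine. The first was 0.16 without mouse 12.2 and 0.27 without mouse 12.4. The second was 0.10 without mouse 9.3 and 0.19 without mouse 7.2, and the last 0.046 without mouse 5.1 and 0.155 without mouse 5.4.

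*Slco1c1* (ENSMUSG00000030235.17, chr6:141524368-141570177) encodes OATP1C1, which carries thyroxine across the barrier and is made by endothelium and astrocytes. Its lowest, median and highest normalized counts were 708, 752 and 802 in control, 700.1, 757 and 855 with duloxetine, 768, 842 and 914 with *R. flavefaciens*, and 744, 858 and 945 with both. Both groups that received the bacterium had medians above the highest control mouse, and their lower mice overlapped with control. The log2 fold change was 0.15 (SE 0.062, limma adjusted *p* = 0.181) with *R. flavefaciens* against control, 0.16 (SE 0.062, limma adjusted *p* = 0.214) with both against control, and 0.13 (SE 0.062, limma adjusted *p* = 0.818) with both against duloxetine.

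*Mfsd2a* (ENSMUSG00000028655.11, chr4:122946850-122961188) encodes the carrier of lysophosphatidylcholine that brings omega-3 lipids into the brain and holds down transport by vesicles. Lowest, median and highest normalized counts of *Mfsd2a* were 289.8, 340.5 and 355 in control, 263, 315 and 357 with duloxetine, 285, 359 and 453 with *R. flavefaciens*, and 242, 318 and 433 with both. All 3 treated groups reached both lower and higher than control. Log2 fold changes against control were -0.09, 0.10 and -0.02 (SE 0.12 each), with limma adjusted *p* = 0.9996, 0.703 and 0.944. The first was -0.040 without mouse 5.4, the second 0.025 without mouse 9.3 and 0.16 without mouse 9.2, and the last -0.10 without mouse 12.2 and 0.063 without mouse 12.4. Over the processing alternatives the second ran from 0.046 to 0.11 and the last from -0.044 to 0.012.

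*Abcb1a* (ENSMUSG00000040584.8, chr5:8660077-8748575) encodes P-glycoprotein, the pump that returns many drugs to the blood. Its lowest, median and highest normalized counts were 369, 413 and 445 in control, 345, 396 and 482 with duloxetine, 410.0, 448 and 514 with *R. flavefaciens*, and 346, 485 and 605 with both. Values with the bacterium reached higher than control, and in each group some mice lay within the control range. Log2 fold changes against control were 0.15 with *R. flavefaciens* and 0.18 with both (SE 0.096 each, limma adjusted *p* = 0.399 and 0.339), and -0.02 with duloxetine. With both it was 0.10 without mouse 12.2 and 0.27 without mouse 12.4.

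**Figure D3:**
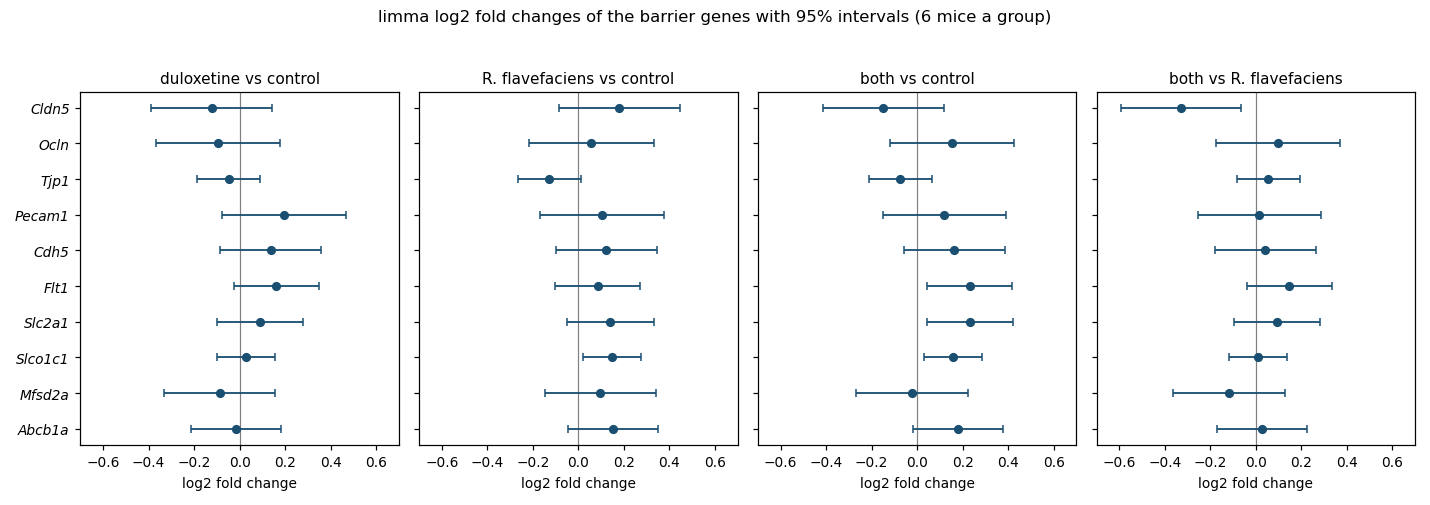
Log2 fold changes (horizontal axis) of the 10 barrier genes (vertical axis) in 4 comparisons of 6 against 6 mice, with points for the limma estimate and bars for the 95% interval. The intervals lie apart from 0 for 0 genes with duloxetine, for *Slco1c1* with *R. flavefaciens*, for *Flt1*, *Slc2a1* and *Slco1c1* with both, and for *Cldn5* between both and *R. flavefaciens*, and none of these passed after adjustment over all genes.

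Since the groups form a design of 2 factors, each treatment was also compared over all 24 mice. For the *R. flavefaciens* factor, 0 of 10 genes passed in limma, against 0.0267% of all genes, and 3 of 10 had an unadjusted *p* under 0.05 in the higher direction, against 7.68% of all genes. *Slco1c1* was higher by 0.14 on the log2 scale (SE 0.044, limma adjusted *p* = 0.12), *Abcb1a* by 0.17 (SE 0.068, limma adjusted *p* = 0.18) and *Slc2a1* by 0.14 (SE 0.065, limma adjusted *p* = 0.251). DESeq2 on the recovered reads called *Slco1c1* (adjusted *p* = 0.0437), where it called 2.95% of all genes, and edgeR did not (adjusted *p* = 0.124, with 0.0267% of all genes called). For the duloxetine factor, 0 of 10 passed in limma, against 1.03% of all genes, and *Cldn5* was lower by an estimate of -0.23 (SE 0.091, limma adjusted *p* = 0.234) while *Flt1* was higher by 0.15 (SE 0.065, limma adjusted *p* = 0.255). For the interaction, which asks whether the effect of duloxetine differed with the bacterium, 0 of 10 passed, against 0% of all genes, and 0 of 10 had an unadjusted *p* under 0.05, against 7.53%. Its largest estimates were -0.21 for *Cldn5* and 0.19 for *Ocln*, with standard errors of 0.18 and 0.19. That of *Cldn5* was -0.10 without mouse 9.3 and -0.30 without mouse 12.2. That of *Ocln* was 0.10 without mouse 11.3 and 0.28 without mouse 12.3. With the trend on transcript length removed, the estimates of *Cldn5* and *Ocln* were -0.12 and 0.18. That of *Pecam1*, at -0.18, was then lower than that of *Cldn5*.

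The barrier genes varied together between mice of the same group. After the group means were taken off, Pearson's *r* of log2 values over 24 mice was above 0 for 41 of 45 pairs and above 0.5 for 28 pairs, with a median of 0.57. All pairs come from the same libraries and share their normalization, so these values describe the libraries. The closest pairs were *Mfsd2a* with *Slco1c1* (*r* = 0.84), both carriers, and *Pecam1* with *Slc2a1* (*r* = 0.82). *Slc2a1* followed the mean of the other members most closely (*r* = 0.87) and *Tjp1* least (*r* = 0.04). The lowest pairs were *Cldn5* with *Tjp1* (*r* = -0.47) and *Tjp1* with *Cdh5* (*r* = -0.30). Without mouse 9.3 the pair of *Cldn5* and *Tjp1* had *r* = -0.16, with the length trend removed *r* = -0.15, and without mouse 12.2 *r* = -0.63.

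A single mouse stood out in this shared variation in the both group. Mouse 12.2 was highest in its group for 9 of 10 genes, all but *Ocln*, and its mean over the members was 0.40 above the mean of 24 mice on the log2 scale. Mouse 12.4 was lowest in the same group for 6 genes and mouse 5.4 was lowest of the duloxetine group for 8 genes, with member means of -0.22 and -0.25. The SD between mice of the member mean was 0.077 in control, 0.16 with duloxetine, 0.059 with *R. flavefaciens* and 0.22 with both. Without mouse 12.2 the median of the 45 pairs was 0.46 and 39 pairs were above 0, so most of the shared variation remained. The median log2 fold change of the members with both against control was then 0.081 in place of 0.16. Without mouse 12.4 that fold change was 0.20.

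**Figure D4:**
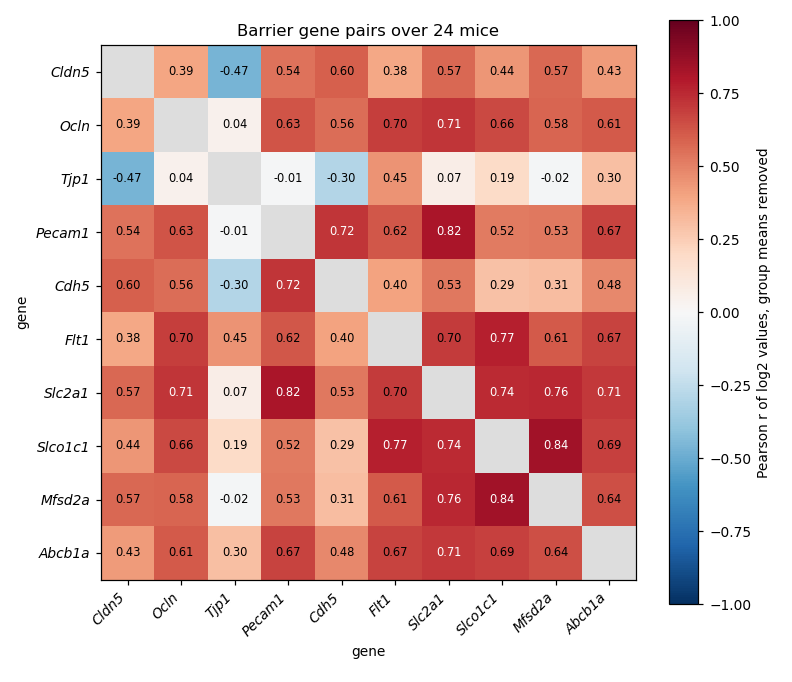
Pearson's *r* between the log2 values of each pair of the 10 barrier genes (both axes) over 24 mice, with group means removed and colour from -1 to 1. The block of positive values among the transporters, *Flt1*, *Ocln* and *Pecam1* stands beside the row of *Tjp1*, which runs from -0.47 with *Cldn5* to 0.45 with *Flt1*.

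Mice also differed more in most of these genes than is usual at their level. Among genes whose mean lay within 0.5 of theirs on the log2 scale, the within-group SD of *Cldn5* (0.25) ranked above 96.7%, that of *Pecam1* (0.25) above 94.3%, *Mfsd2a* (0.23) above 92.6%, *Slc2a1* (0.18) above 91.1% and *Flt1* (0.17) above 90.5% of genes. *Abcb1a* ranked above 86.7%, *Cdh5* above 81.5%, *Ocln* above 77.6% and *Tjp1* above 68.0%. *Slco1c1* (0.11) ranked above 56.8%, near the middle. From the lowest to the highest of 24 mice, *Cldn5* spanned 2.27-fold and *Slco1c1* 1.35-fold.

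Other genes of the barrier and its vessels, taken from lists and tested in the same fit, showed few changes against control. In limma, 0 of 16 junction partners, 0 of 21 further transporters, 0 of 12 genes of transcytosis and caveolae, 0 of 20 genes of VEGF, angiopoietin and Notch signalling, 0 of 16 genes of Wnt/beta-catenin signalling, 0 of 19 endothelial transcription factors, 0 of 23 other endothelial markers, 0 of 15 genes of pericytes and smooth muscle and 0 of 12 of the basement membrane passed in any of the 3 comparisons with control. At an unadjusted *p* of 0.05, limma gave for these lists with both 1, 5, 1, 2, 2, 3, 6, 4 and 3 genes, in the same order, against 16.8% of all genes. Over these lists and that of endothelial activation, 163 genes were tested with limma and 1 passed against control, with both (0.613%, against 0.1% of all genes). DESeq2 called 5 of the 163 with both (3.07%, against 1.45% of all genes), 1 with *R. flavefaciens* (0.613%, against 3.26%) and 0 with duloxetine. The gene that passed in limma was *F3*, 1 of 9 genes of endothelial activation, which encodes tissue factor, the trigger of clotting that is made in brain mostly by astrocytes. Its normalized counts were between 217 and 333 in control and between 360.1 and 543 with both, with medians of 268 and 416, and all mice given both treatments lay above all controls. The log2 fold change was 0.71 (SE 0.12, limma adjusted *p* = 0.00656), and it remained called when any of the 24 mice was left out. Values with single treatments were between, at 0.51 (limma adjusted *p* = 0.881) with duloxetine and 0.37 (limma adjusted *p* = 0.104) with *R. flavefaciens*.

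With *R. flavefaciens* against control, the genes named here had the smallest *p*-value of their own list, and not all such genes are named. On the lower side were *Afdn*, a junction scaffold (-0.22, limma adjusted *p* = 0.0795), *Lrp1*, a receptor of transcytosis (-0.22, limma adjusted *p* = 0.12), and *Nrp1*, a VEGF co-receptor (-0.28, limma adjusted *p* = 0.148). On the higher side were *Ndp*, a ligand of the Wnt pathway in brain vessels (0.45, limma adjusted *p* = 0.124), and *Sparc*, a matrix protein of vessels (0.26, limma adjusted *p* = 0.127). DESeq2 called *Afdn* (adjusted *p* = 0.0312). Mouse 9.3, which has the lowest slope on transcript length, was the lowest mouse of its group for *Afdn*, *Lrp1* and *Nrp1* and the highest for *Ndp* and *Sparc*. Without it the estimates were -0.17, -0.15, -0.20, 0.34 and 0.21 in the order given, and DESeq2 no longer called *Afdn* (adjusted *p* = 0.125). With the length trend removed they were -0.11, -0.0074, -0.28, 0.39 and 0.22, so that the value of *Lrp1* was near 0 and that of *Afdn* smaller. With both against control, genes with the smallest *p*-value of their own list included *Fzd4*, the receptor of *Ndp* (0.40, limma adjusted *p* = 0.123), *Sox18* (-0.61, limma adjusted *p* = 0.106) and *Adgrf5* (0.37, limma adjusted *p* = 0.0849), and for pericytes *Rgs5*, a regulator of G protein signalling (0.30, limma adjusted *p* = 0.118). Each of these estimates failed the threshold in limma. The calls of DESeq2 with both included *Sox18* (adjusted *p* = 0.04), *Adgrf5* (adjusted *p* = 0.017) and *Rgs5* (adjusted *p* = 0.0414), besides *F3*.

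The comparison of both with *R. flavefaciens* had the most calls in the table, 2.23% of all genes, and 7 of these lay among the 163 genes of the vessel lists (4.29%). DESeq2 called 8 of the 163 (4.91%, against 4.17% of all genes). *Sox18*, a transcription factor of endothelium, fell by 0.71 on the log2 scale (SE 0.17, limma adjusted *p* = 0.0244), with normalized counts between 94.7 and 174 in the *R. flavefaciens* group and between 45.9 and 108 in the both group, which overlapped. *Adgrf5*, an adhesion receptor of endothelium, rose by 0.38 (SE 0.094, limma adjusted *p* = 0.0313), from between 384 and 468 to between 467 and 707. *Col4a1* and *Col4a2*, the chains of collagen IV in the basement membrane, rose by 0.38 (SE 0.081) and 0.35 (SE 0.088), with limma adjusted *p* = 0.0171 and 0.033. *Atp13a5*, a marker of brain pericytes, rose by 0.47 (SE 0.11, limma adjusted *p* = 0.0229), the taurine carrier *Slc6a6* rose by 0.22 (SE 0.056, limma adjusted *p* = 0.0356), and *Slc3a2*, the heavy chain of amino acid carriers, fell by 0.17 (SE 0.045, limma adjusted *p* = 0.0447). *Col4a1* was also above its control level with both and below it with *R. flavefaciens*, with log2 estimates of 0.20 and -0.18 that did not pass (limma adjusted *p* = 0.225 and 0.227).

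Several of these calls depended on single mice. The call of *Sox18* was lost without mouse 9.3 or 11.3 (limma adjusted *p* up to 0.0649), that of *Adgrf5* without 7.2, 9.3, 11.3 or 12.2 (up to 0.101), that of *Atp13a5* without 9.1, 11.3 or 12.2 (up to 0.073), and that of *Col4a2* without 8.3, 9.1, 9.2, 11.3, 11.4, 12.2 or 12.3 (up to 0.076). That of *Slc6a6* was lost without 7.2, 8.3, 9.1, 9.3, 10.2, 11.3, 12.2 or 12.3 (limma adjusted *p* up to 0.1). That of *Slc3a2* was lost when any of 16 mice was left out (limma adjusted *p* up to 0.103) and kept only without 2.3, 3.1, 5.1, 5.4, 6.3, 8.3, 8.4 or 10.2. That of *Col4a1* was kept in all 24 such fits. With the trend on transcript length removed, limma adjusted *p* was 0.0547 for *Col4a1*, 0.0897 for *Col4a2*, 0.084 for *Adgrf5* and 0.0666 for *Slc6a6*, so that these calls were lost, with log2 fold changes of 0.33, 0.31, 0.31 and 0.18 in the same order that kept most of their size, while *Sox18*, *Atp13a5* and *Slc3a2* were still called. The call of *Slc3a2* was lost under quantile normalization and under rescaling to the 75th percentile (limma adjusted *p* up to 0.105). For the duloxetine factor over all 24 mice, *F3* (0.42), *Adgrf5* (0.29), *Col4a1* (0.27) and *Col4a2* (0.27) rose and *Sox18* fell by 0.52 (limma adjusted *p* = 0.013, 0.0338, 0.0243, 0.0316 and 0.0311). There the call of *Col4a1* was lost without 2.1 or 3.1 (up to 0.0559), that of *Sox18* without 2.1, 2.3, 3.1, 6.1 or 11.3 (up to 0.0643), that of *Adgrf5* without 2.1, 3.1, 3.3, 5.3, 6.2, 6.3, 11.3 or 12.2 (up to 0.0693), that of *Col4a2* without 2.1, 2.3, 3.1, 5.3, 6.1, 6.2, 8.3, 9.1, 11.3, 12.2 or 12.3 (up to 0.0653), and that of *F3* with none. With the trend on transcript length removed, *Col4a2* had a log2 fold change of 0.26 for this factor and was no longer called (limma adjusted *p* = 0.0589), and the other 4 genes were.

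Genes that followed the barrier genes most closely were ranked by Pearson's *r* with the members' mean standardized log2 value, over 24 mice with group means removed. The 10 closest were *S1pr1* (0.93), *Glul* (0.92), *Epas1* (0.90), *Gja1* (0.90), *Slc39a12* (0.90), *Plpp3* (0.89), *Sft2d2* (0.88), *Sfxn5* (0.88), *Lima1* (0.88) and *Lims2* (0.88). *Glul*, which makes glutamine, and *Gja1*, a gap junction protein, are genes of astrocytes, *Epas1* is a hypoxia factor of endothelium and astrocytes, and *S1pr1* is a receptor of both cell types. Without mouse 12.2, 7 of these 10 were again among the 10 closest, and without mouse 9.3, 8 of 10.

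Markers of other cell types varied with the barrier genes as well. Against a median *r* of -0.02 over all genes, the median was 0.67 for 10 microglial genes, 0.67 for 6 genes of blood cells, 0.66 for 12 genes of astrocyte endfeet, 0.60 for 10 genes of oligodendrocytes, 0.54 for 23 other endothelial markers, 0.54 for 15 genes of pericytes and smooth muscle and -0.28 for 10 neuronal genes. The median of other endothelial markers lay below those of glia and blood. Mouse 12.2 was highest of its group in the summed normalized counts of all these lists but the neuronal one.

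**Figure D5:**
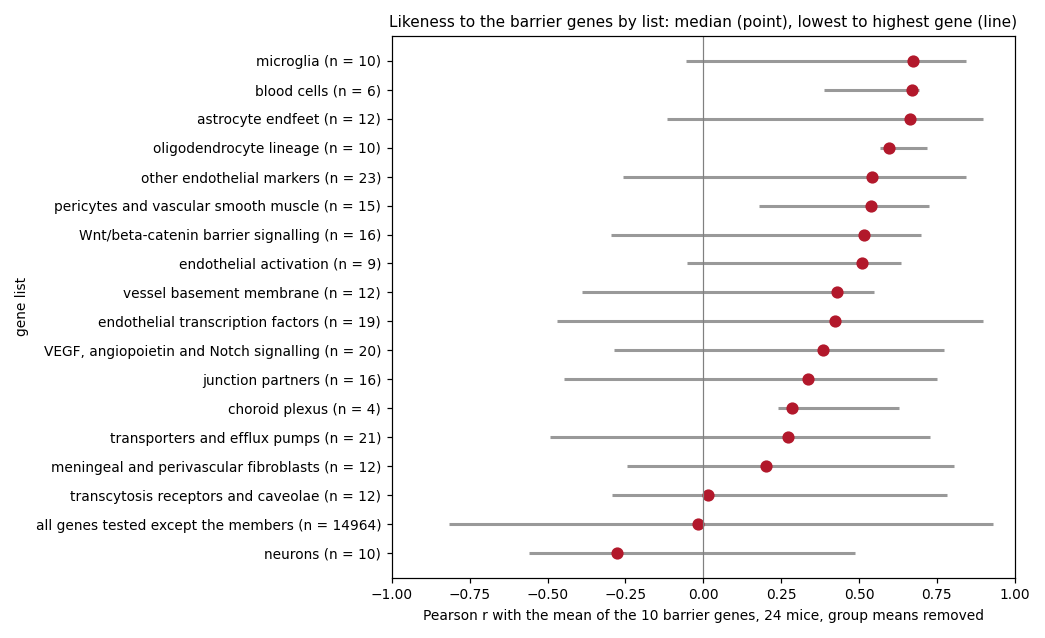
Pearson's *r* of each gene list (vertical axis, with its number of genes) with the mean of the 10 barrier genes over 24 mice, group means removed (horizontal axis), with points for the median gene and lines from the lowest to the highest gene. Microglia, blood and astrocyte endfeet have the highest medians, 0.67, 0.67 and 0.66, and neurons the lowest, -0.28.

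The lists of blood cells, microglia, astrocyte endfeet, oligodendrocytes, other endothelial markers and pericytes had medians above 0 in all 3 comparisons with control. So did the lists of choroid plexus, endothelial activation and Wnt/beta-catenin signalling. For blood cells, 6 of 10 listed genes were in the table, the most abundant was *Bpgm* with a mean normalized count of 578, and none of the hemoglobin genes was at 0. Their summed normalized counts had a lowest, median and highest value of 805, 897 and 1014 in control, 760.2, 918 and 1661 with duloxetine, 973, 1155 and 1631 with *R. flavefaciens*, and 852, 1051 and 1748 with both. Their median log2 fold change over control was 0.29, 0.68 and 0.73, and 0, 4 and 5 of 6 genes had an unadjusted *p* under 0.05 in the higher direction in limma, where 2.2%, 8.86% and 8.08% of all genes did, and 0 passed after adjustment. The 10 microglial genes, with *Csf1r* the most abundant at a mean of 1414, had summed medians of 4332, 4920.2, 4776 and 4977 in the 4 groups, median log2 fold changes of 0.18, 0.14 and 0.23, and 5, 4 and 7 of 10 genes higher at an unadjusted *p* of 0.05. DESeq2 called *C1qa*, a complement gene, with *R. flavefaciens* (adjusted *p* = 0.0252, and 0.112 without mouse 9.3), and *C1qa* (adjusted *p* = 0.0385) and *Ptprc* (adjusted *p* = 0.0191) with both. The 12 genes of astrocyte endfeet, led by *Slc1a2* at a mean of 50508, had summed medians of 69409.7, 75092, 71679 and 78379, and median log2 fold changes of 0.05, 0.13 and 0.16. The 10 genes of oligodendrocytes, led by *Mbp*, had summed medians of 26228, 27484, 37100.2 and 29657, and median log2 fold changes of 0.08, 0.13 and 0.10. The 10 neuronal genes, led by *Camk2a*, had median log2 fold changes of -0.0018, 0.016 and 0.010. The part of blood, microglia, astrocytes and oligodendrocytes in the estimates of the barrier genes was not tested.

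*Ttr*, the defining gene of the choroid plexus among the markers, had a median normalized count of 4.42 and was at 0 in 3 of 24 mice. It reached 657 in mouse 8.4 of the *R. flavefaciens* group alone, and the next highest value was 68.6 in mouse 5.3 of the duloxetine group. Its lowest, median and highest normalized counts were 0, 1.05 and 3.08 in control, 1.02, 7.71 and 68.6 with duloxetine, 0, 20.4 and 657 with *R. flavefaciens*, and 0.97, 17.9 and 62 with both. Each treated group reached above the highest control, and each overlapped with control. Of 8 listed choroid plexus genes 4 were in the table. Their median log2 fold change against control was 0.049 with duloxetine, 0.56 with *R. flavefaciens* and 0.33 with both, and 0 passed in limma. The highest estimate among them, 2.23, 3.34 and 2.71 in the same order, was also the highest over all genes tested. The 12 genes of meningeal and perivascular fibroblasts, led by *Ptgds*, had a median log2 fold change of 0.26 with *R. flavefaciens* and of -0.11 with both, and 0 of them passed in limma. In the comparison of both with *R. flavefaciens*, where *Cldn5* had its smallest *p*-value, that median was -0.36 with 11 of 12 genes below 0, and *Ptprc*, the pan-leukocyte gene CD45, rose by 0.64 (SE 0.17, limma adjusted *p* = 0.0495). That call was kept only without 5.1, 6.3, 8.3, 8.4, 9.1 or 12.4 and was lost when any of the other 18 mice was left out (limma adjusted *p* up to 0.126). It was also lost under quantile normalization, with the length trend removed and in edgeR (adjusted *p* up to 0.0798), with a log2 fold change of 0.61 after removal of the length trend. For the duloxetine factor *Ptprc* rose by 0.56 (SE 0.12, limma adjusted *p* = 0.0258), which was lost without 2.1, 3.1, 5.3 or 11.3 (up to 0.06).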

How the data were processed

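The authors prepared poly(A) libraries, sequenced them on an Illumina HiSeq 2500 and used Tophat2 to map reads onto GRCm38.p5 (the submitters' processing notes name TopHat2 2.1.0, Bowtie2 2.2.6, DESeq2 1.18.1 and mm9). Gene positions in the table fit GRCm38 (14253 of 15456 the same in GENCODE M21, 9 of 10 members). The counting program, strand and gene filter were not given in the sources used here. The deposited signal values are gene counts that the authors normalized with DESeq2, 1 column per mouse. Whole reads were recovered from the steps of each column (99.997% of 370875 non-zero values whole within 0.0051, and 69 values were 0).

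Log2(value + 1) was fitted for 14974 genes (mean of 10 or more) with limma 3.58.1 (trended prior, 4 groups in 1 fit, two-sided). Adjustment followed Benjamini and Hochberg over all genes within each comparison, at 0.05. edgeR 4.0.16 and DESeq2 1.42.0 on recovered reads, other pseudocounts, filters and scalings, a random block by the first number of each label, loess correction for transcript length (span 0.3), and leaving out each mouse were alternatives. The tests were checked on simulated data. Members of each list that were named are its most abundant gene, genes that passed, and its gene with the smallest *p* against control. Not all genes that this rule names are reported here. The members and lists were chosen with earlier results of these data known. Nothing in the labels says how cages or litters fall among the mice, and *p*-values measure the spread between these mice.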

Additional observations from a re-analysis of the deposited data

Results flagged for a closer look

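In each group of 6 mice, every barrier gene was checked for a lowest or highest mouse whose gap to its nearest neighbour exceeded Dixon's 95% critical share of the group's range. Of 40 combinations of gene and group, 2 had such a mouse, and chance gives about 1 in 20 groups. *Ocln* had 90.86 normalized counts in mouse 7.2 of the *R. flavefaciens* group, where the other mice had 110.3 to 121.09. *Tjp1* had 1545.5 normalized counts in control mouse 2.2, where the other controls had 1622.5 to 1660.1. In neither group did the coefficient of variation (9.25% and 2.45%) exceed that of counting error alone (9.61% and 2.53%).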

How the results depend on the processing

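Counts of barrier genes that passed were recomputed in 285 combinations of comparison and alternative, and 284 stayed as reported. The other was the *R. flavefaciens* factor under DESeq2 on the recovered reads, which called 1 gene, *Slco1c1* (adjusted *p* = 0.0437), and the cause was not tested. Leaving out 1 mouse moved the median log2 fold change with both against control between 0.081 (without mouse 12.2) and 0.20 (without 12.4), that with *R. flavefaciens* between 0.076 (without 1.1) and 0.13 (without 2.2), and that of both against duloxetine between -0.0085 (without 12.2) and 0.13 (without 12.4). Over all genes, the number called between both and *R. flavefaciens* ran from 47 (without 11.3) to 577 (without 8.4), and that with *R. flavefaciens* against control from 0 (without 1.1) to 616 (without 9.2). DESeq2 gave no adjusted *p* for *Ocln* with *R. flavefaciens*, nor for *Ocln*, *Pecam1*, *Mfsd2a* and *Cdh5* in its factor. Correlations without mouse 9.3 or 12.2 or the length trend, and values of list genes without mouse 9.3, were added after seeing the data. For the correlations, the length trend was removed through interpolated means of bins of transcript length, not by loess. No paired analysis was possible because the groups share no replicate number. Standard errors of the members, up to 0.13 on the log2 scale in comparisons of 6 against 6 mice, limit what could be detected.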
